A study of Homo sapiens with 6 samples.

Results

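Genes of the p53 pathway were read across 6 single-channel arrays of MCF10A cells, an established mammary epithelial line of human origin that forms no tumours, here the version named with ErbB2, a receptor tyrosine kinase. The genes were 31 named regulators and targets of p53, chosen by symbol with earlier results of these data known. Of these, 29 had a probe set annotated with exactly 1 gene symbol, out of 18417 such genes on the array. FDXR and BTG2 were not analysed here. Each of the 29 genes had 1 probe set of that kind. All cells spent 7 days in 3-D culture within reconstituted basement membrane, and the groups differed in RB, the retinoblastoma protein. One group of 3 arrays was labelled RB-proficient, with sample titles tagged miNS, and the other group of 3 was labelled RB-deficient, with titles tagged miRB. The labels do not spell out these tags, and they do not say whether each group was 1 clone or whether its replicates were separate cultures. The spread behind the p-values is therefore that of these samples alone and may be technical. Both groups share the ErbB2 background and the culture medium, and no sample without ErbB2 was compared.

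The transcription factor p53 is stabilised by DNA damage and other stress and binds response elements that pair 2 copies of a short half-site. Its targets arrest the cell cycle, repair DNA, trigger apoptosis and alter metabolism, and some of them, led by the ubiquitin ligase MDM2, restrain p53 itself in a feedback loop. RB acts beside this pathway by holding back E2F transcription factors. In mammary epithelial cells grown in 3-D, death of inner cells hollows the forming structure, and several targets of p53 encode death receptors and other apoptotic proteins. MCF10A cells are known to carry wild-type p53.

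Promoter sequences came from the supplied promoter set (build GRCh38.p14), which held an entry for 21 of the 29 genes and for 14239 of the genes tested. The 250 bases before each start were searched on both strands for the p53 half-site by its 10-base consensus, for the E2F motifs TTTCCCGC, TTTCGCGC and TTTGGCGC, for the CHR motif TTTGAA, for the TATA box TATAAA and for the GC box GGGCGG. Of the 21 promoters 2 held an exact half-site (9.52%), against 5.10% of all promoters. An E2F motif of any of the 3 spellings was in 3 of the 21, AEN, MDM2 and XPC (14.3%), against 3.24% of all. GC boxes were in 16 of the 21 (76.2%), against 57.5%, CHR motifs in 2 (FAS and MDM4, 9.52%), against 10.6%, and a TATA box in GDF15 alone (4.76%), against 8.60%. A match is a string in this window and not a measured site.

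The sequences of 5 promoters follow, 5′ to 3′ in the direction of the gene. AEN and PLK2 are shown because they held the half-site, which is in capitals. The other 3 are shown because the values of the groups did not overlap for these genes, and the GC boxes on either strand are in capitals. The window of XPC was cut to 215 bases where the gene body of LSM3 begins, so the E2F motif of XPC lies outside the bases printed.
AEN (chr15:88621090-88621339, plus strand): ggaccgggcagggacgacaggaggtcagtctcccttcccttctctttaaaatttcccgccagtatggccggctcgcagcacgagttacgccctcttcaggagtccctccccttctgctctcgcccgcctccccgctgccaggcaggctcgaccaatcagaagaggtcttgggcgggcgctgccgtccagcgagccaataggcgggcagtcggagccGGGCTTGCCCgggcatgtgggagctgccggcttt
PLK2 (chr5:58460087-58460336, minus strand): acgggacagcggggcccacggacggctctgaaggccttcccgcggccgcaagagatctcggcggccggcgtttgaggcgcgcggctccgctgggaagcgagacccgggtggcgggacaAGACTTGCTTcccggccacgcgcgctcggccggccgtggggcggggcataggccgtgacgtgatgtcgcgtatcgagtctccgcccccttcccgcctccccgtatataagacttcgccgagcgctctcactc
SESN1 (chr6:109094847-109095096, minus strand): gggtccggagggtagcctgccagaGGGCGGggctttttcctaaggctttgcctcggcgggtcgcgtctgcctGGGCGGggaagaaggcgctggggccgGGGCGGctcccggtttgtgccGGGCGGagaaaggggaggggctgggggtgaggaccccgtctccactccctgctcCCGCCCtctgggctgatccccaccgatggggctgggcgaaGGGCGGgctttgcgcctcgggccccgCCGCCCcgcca
XPC (chr3:14178602-14178816, minus strand): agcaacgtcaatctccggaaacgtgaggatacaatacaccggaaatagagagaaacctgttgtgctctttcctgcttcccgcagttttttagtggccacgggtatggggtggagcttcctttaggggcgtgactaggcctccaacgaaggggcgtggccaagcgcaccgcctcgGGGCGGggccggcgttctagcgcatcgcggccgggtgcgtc
PLK3 (chr1:44800127-44800376, plus strand): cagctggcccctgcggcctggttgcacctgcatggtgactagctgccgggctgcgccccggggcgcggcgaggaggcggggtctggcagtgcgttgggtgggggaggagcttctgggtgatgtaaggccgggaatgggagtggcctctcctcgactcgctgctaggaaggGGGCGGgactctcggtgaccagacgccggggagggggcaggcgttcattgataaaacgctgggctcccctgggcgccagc
The half-site of AEN, GGGCTTGCCC, spans bases 34 to 25 before the start, and that of PLK2, AGACTTGCTT, spans bases 132 to 123. The SESN1 promoter held 7 GC boxes, XPC and PLK3 held 1 each within the bases printed, AEN 1 and PLK2 2.

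Values are log2 of the deposited intensity after all arrays were brought to 1 common median, and a value of 0 is the floor. Values of a gene are given in the order of replicates 1 to 3. Differences are RB-deficient minus RB-proficient on this scale. Levels of different genes cannot be set against each other, because each probe set has its own response. The deposited array medians ran from 21.4 to 28.0. RB1 itself, the gene of RB, read 7.01, 5.77 and 7.65 in RB-proficient cells and 3.45, 5.09 and 6.04 in the RB-deficient-labelled arrays. The groups overlapped for RB1, since the highest RB-deficient value exceeded the lowest RB-proficient one, so every direction here rests on the labels. Pearson's r across genes, which are no independent replicates, was 0.90 to 0.92 between RB-proficient arrays and 0.67 to 0.75 between the RB-deficient-labelled arrays. The array labelled RB-deficient 3 reached an r of 0.88 with another array. That exceeds every r within its own group, so its closest array was an RB-proficient one. The reference genes ACTB (-1.92, SE 0.50) and GAPDH (-1.23, SE 0.47) lay lower in all 3 RB-deficient-labelled arrays, and their part in the results below was not tested.

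Epithelial markers were present in every array. All 7 measured of 8 listed lay between 5.45 and 11.6. CDH1 (-1.54), KRT8 (-1.33) and KRT18 (-1.27) were lower without overlap in the RB-deficient-labelled arrays, and EPCAM (0.24) was higher without overlap. Of all genes 15.3% lay lower and 7.12% higher without overlap. The groups overlapped for KRT5 (-2.40, SE 0.90), which had the largest difference of the 7, and for KRT14 (-0.71, SE 0.51) and ITGA6 (-0.36, SE 0.52). The summed scaled intensity of the 7 epithelial markers was 4165 to 6554 in the RB-proficient arrays and 3007 to 3615 in the RB-deficient-labelled arrays. Fibroblast markers (7 of 7 measured) summed to 157 to 216 and 141 to 287, and COL3A1 and THY1 were at the floor in the array labelled RB-deficient 1. Endothelial markers (5 of 5) summed to 477 to 598 and 307 to 360, most of it from CDH5 at 8.70, 8.98 and 9.10 and then 8.29, 7.82 and 8.07. Leukocyte markers (4 of 5) summed to 100 to 110 and 86.8 to 117, and PTPRC was the one of them without overlap, at 1.35, 2.78 and 2.91 and then 3.45, 3.51 and 4.21. Sums of different lists cannot be set against each other, because each probe set has its own response. Whether the dim probe sets among these lay above background is unknown. CDH5 was not among the dim ones, and the source of its signal was not tested.

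None of the 29 p53 genes rose or fell past the threshold in the RB-deficient-labelled arrays. By limma's test 0 of 29 passed an adjusted p of 0.05, against 1 of all 18417 genes (0.00543%), and the smallest adjusted p among them was 0.267, for XPC. At an unadjusted p under 0.05 there were 3 lower (XPC, SESN1 and BLOC1S2), which is 10.3% against a background of 10.8%, and 0 higher against 2.85%. The groups did not overlap, with all RB-deficient values lower, for 4 genes (13.8%, against 15.3% of all genes), and with all higher for 1 gene (3.45%, against 7.12%). These shares lie near or below the background. The fitted difference was below 0 for 23 of 29 genes, against 58.7% of all genes. Its median was -0.51 for the p53 genes and -0.21 for all genes, a gap of -0.30 that was also -0.30 with quantile normalization. Centring each array shifts every gene alike, so it cannot change the gap. Quantile normalization and centring moved the median of all genes to -0.09 and -0.08. The gap was -0.26 without the dimmest 50% of genes and -0.36 with a floor of 16. The gap moved with single arrays, to -0.17 without RB-proficient array 2, -0.19 without the array labelled RB-deficient 1 and -0.56 without the array labelled RB-deficient 3. Without the array labelled RB-deficient 3 the median of the p53 genes was -0.81. Without the RB-deficient-labelled arrays 1 and 2 it was -0.40 with 20 of 29 below 0, against a median of -0.14 for all genes.

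**Figure D1:**
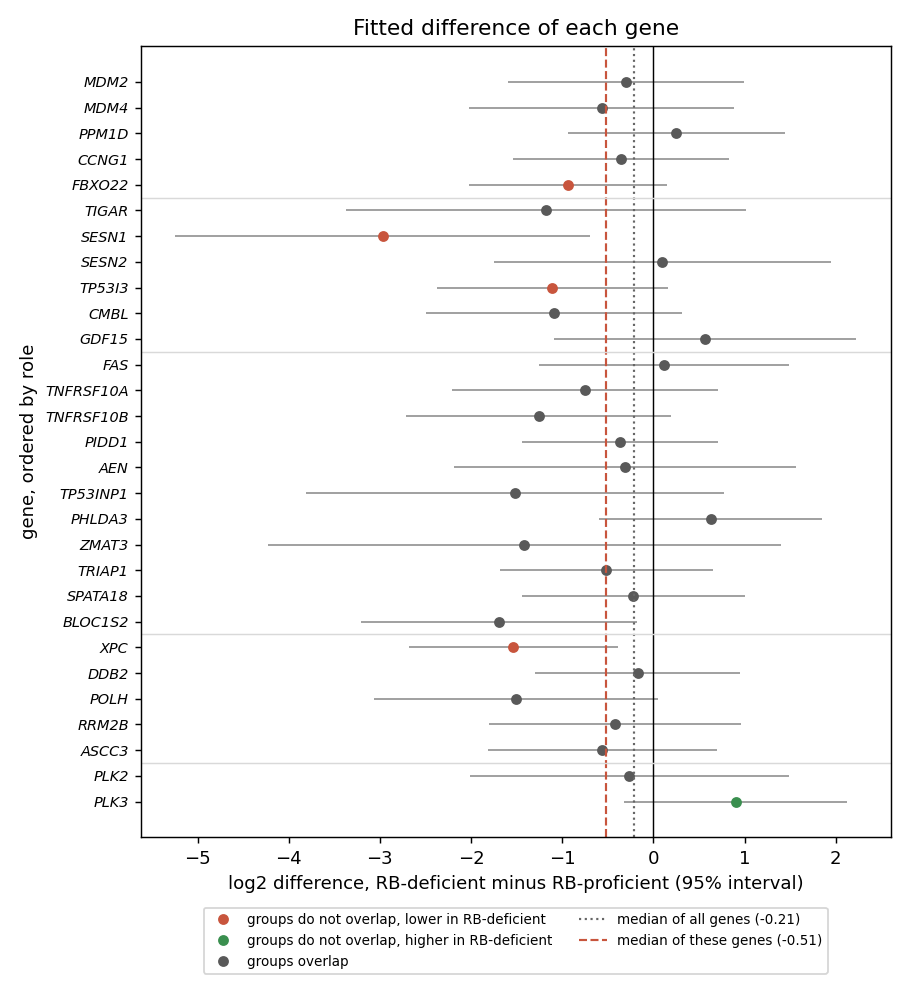
Fitted log2 difference of each of the 29 p53 genes, RB-deficient minus RB-proficient (x axis), with its 95% interval from limma (3 arrays per group), ordered by role from feedback genes at the top to kinases at the bottom. Intervals of 3 genes (SESN1, BLOC1S2 and XPC) leave out 0, and the 4 genes in red and 1 in green are those whose groups did not overlap.

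The precision limits what these arrays can show. The 95% interval of the difference reached below -1 for 26 of the 29 genes, and above 1 for 11 of them. A missed threshold therefore does not show that a gene was alike in both groups.

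**Figure D2:**
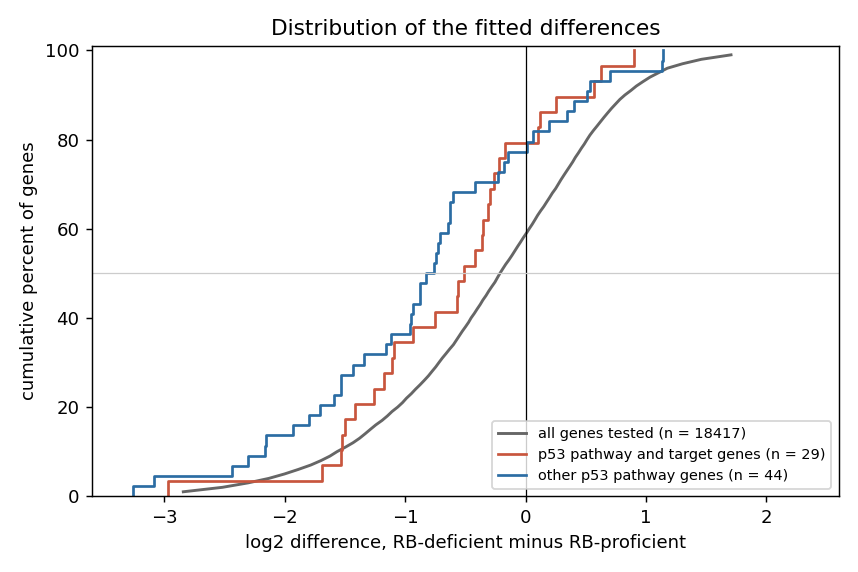
Cumulative percent of genes (y axis) against the fitted log2 difference (x axis) for all 18417 genes tested, the 29 p53 genes and 44 other genes of the pathway. Both pathway curves lie to the left of the curve of all genes over most of the range, with medians of -0.51 and -0.79 against -0.21.

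Among the genes that feed back on p53, MDM2 and MDM4 did not separate the groups. MDM2, the ligase that marks p53 for degradation, read 8.76, 9.45 and 9.14 in RB-proficient cells and 8.24, 8.37 and 9.84 in the RB-deficient-labelled arrays. Arrays 1 and 2 of the latter lay below every RB-proficient value and array 3 above every one, so the mean difference of -0.30 (SE 0.57, adjusted p 0.834) averages both directions. MDM4, the related protein that binds the activation domain of p53, read 7.02, 7.31 and 6.69 and then 5.96, 5.54 and 7.81, again with arrays 1 and 2 below the RB-proficient range and array 3 above it. Its difference was -0.57 (SE 0.65, adjusted p 0.714). Without the RB-deficient-labelled arrays 1 and 2 the differences were 0.72 for MDM2 and 0.80 for MDM4. The log2 ratio of MDM2 to MDM4 within an array differed between the groups by 0.27, and this was not distinguishable from the spread (two-sided exact permutation p 0.5, adjusted p 0.6 over 4 pairs, where 0.1 is the smallest p that 3 against 3 allows).

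FBXO22, the F-box protein that directs ubiquitin ligase to methylated p53, was the feedback gene without overlap. Probe set 7985053 read 7.29, 6.59 and 7.40 in RB-proficient cells and 6.19, 5.99 and 6.29 in the RB-deficient-labelled arrays. All 3 of the latter lay within 0.29 of each other and below each RB-proficient value. The difference of -0.94 (1.91-fold, 95% interval -2.02 to 0.15) had an adjusted p of 0.425. PPM1D, the phosphatase that switches off damage signalling, was at 3.95, 3.87 and 4.16 and then 3.67, 4.02 and 5.06, with array 3 again the highest (difference 0.25, SE 0.53; -0.15 without that array). CCNG1, cyclin G1, which brings a phosphatase to MDM2, differed by -0.36 (SE 0.53), and only array 2 labelled RB-deficient lay outside its RB-proficient range. Without that array the CCNG1 difference was -0.0019.

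**Figure D3:**
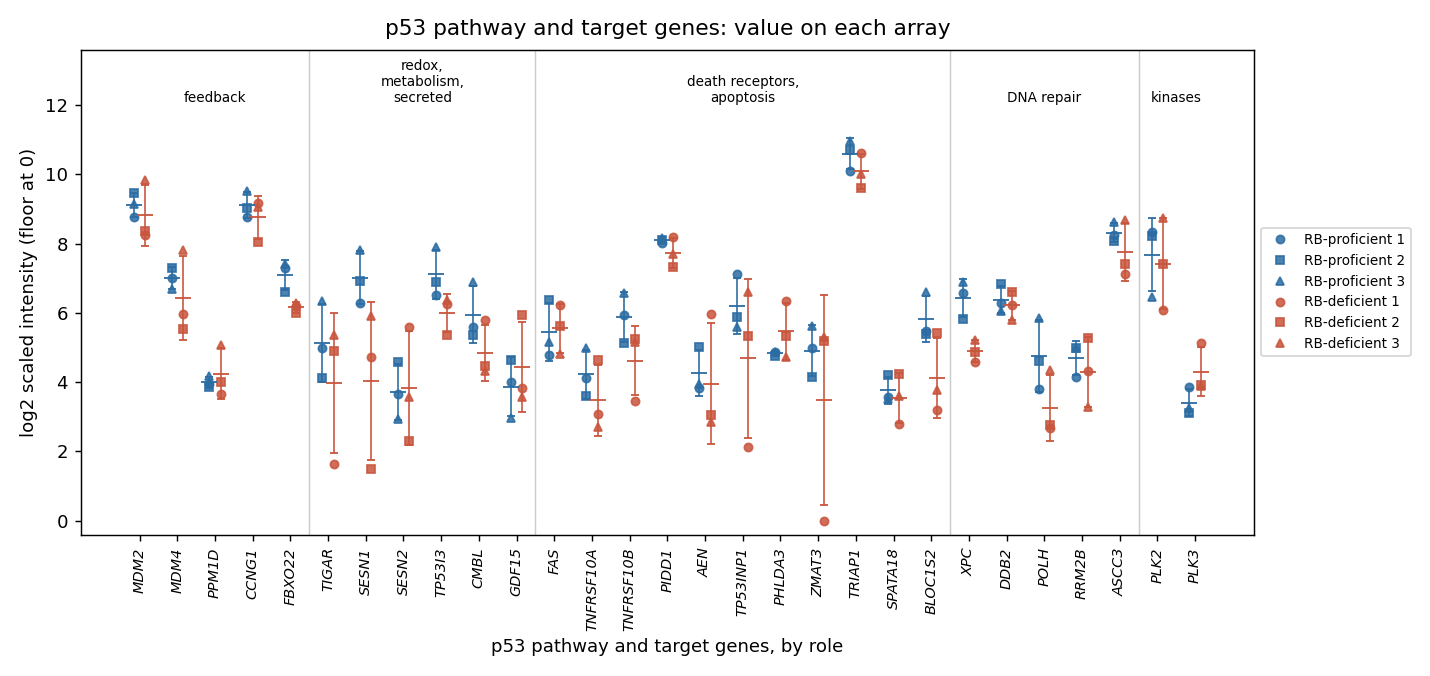
Log2 scaled intensity (y axis) of each p53 gene (x axis, grouped by role) on every array, blue for RB-proficient and red for RB-deficient, with marker shapes for replicates 1 to 3 and the bar giving the mean and SD (n = 3). SESN1, TP53I3, FBXO22 and XPC are the genes whose red points all lie below the blue ones, and PLK3 the one whose red points all lie above. Heights of different genes are not comparable.

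Genes of redox control and metabolism held the largest difference of the 29. SESN1, a sestrin that restrains mTORC1 under stress, read 6.29, 6.92 and 7.81 in the RB-proficient arrays (probe set 8128698) and 4.74, 1.48 and 5.90 in the RB-deficient-labelled arrays. Every RB-deficient value was lower, and array 2 stood far below the other two. The difference was -2.97 (SE 1.01, 95% interval -5.24 to -0.70, 7.84-fold), with an adjusted p of 0.274. Its size depends on single arrays and on the floor: it was -1.69 without the array labelled RB-deficient 2, -1.11 without arrays 1 and 2, and -1.89 with an offset of 16 added before the log (adjusted p 0.0635).

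SESN2, the related sestrin that senses leucine, did not follow SESN1. It read 3.66, 4.57 and 2.95 in RB-proficient cells and 5.58, 2.31 and 3.58 in the RB-deficient-labelled arrays, so array 1 of the latter was the highest of all 6 and array 2 the lowest. The difference of 0.099 (SE 0.82) became -0.78 without array 1. Within arrays the log2 ratio of SESN1 to SESN2 was 2.63, 2.35 and 4.87 in RB-proficient cells and -0.84, -0.83 and 2.31 in the RB-deficient-labelled arrays. Such a ratio has meaning only as a change between arrays. These ratios did not overlap and differed by -3.07 between the groups, with a two-sided exact permutation p of 0.1, the smallest this design allows, and 0.4 adjusted over the 4 pairs compared.

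TP53I3, a quinone oxidoreductase, was the other metabolic gene without overlap, at 6.53, 6.89 and 7.91 and then 6.25, 5.38 and 6.37 (probe set 8050702). The difference of -1.11 (2.16-fold, 95% interval -2.37 to 0.16) had an adjusted p of 0.415, and the gap between the groups was narrow, from 6.53 to 6.37. It was -0.71 without RB-proficient array 3. TIGAR, a phosphatase that lowers glycolytic flux, was at 4.98, 4.11 and 6.34 and then 1.65, 4.88 and 5.36. Only array 1 lay outside the RB-proficient range of TIGAR, and the difference of -1.18 (SE 0.98) was -0.02 without it and 0.22 without arrays 1 and 2. CMBL, a hydrolase, differed by -1.09 (SE 0.63; -0.62 without RB-proficient array 3). GDF15, a secreted stress factor of the TGF-beta family, differed by 0.57 (SE 0.74), which rested on the array labelled RB-deficient 2 and was -0.18 without it.

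Death receptors and apoptosis genes had no member without overlap among 11, where 15.3% of all genes lay lower and 7.12% higher without overlap. The TRAIL receptor TNFRSF10B (DR5) was at 5.93, 5.12 and 6.57 in RB-proficient cells and 3.46, 5.24 and 5.15 in the RB-deficient-labelled arrays. Array 1 was the lowest, and the other 2 overlapped RB-proficient array 2. The difference was -1.26 (SE 0.65, adjusted p 0.423), and -0.68 without array 1. TNFRSF10A (DR4), the other TRAIL receptor, differed by -0.75 (SE 0.65), from -1.34 without array 2 to -0.37 without array 3, and by -0.15 with a floor of 16. FAS, the receptor of FAS ligand, differed by 0.12 (SE 0.61), with all 3 FAS values of the RB-deficient-labelled arrays inside the RB-proficient range. The log2 ratio of TNFRSF10A to TNFRSF10B differed by 0.51 between the groups (two-sided exact permutation p 0.4, adjusted p 0.6). TNFRSF10D, a decoy receptor for TRAIL and not among the 29 genes, was at 4.55, 4.38 and 5.0 and then 2.63, 2.69 and 2.82, a difference of -1.93 (SE 0.47, adjusted p 0.21) with no overlap. Its size depends on the floor and was -0.64 when the floor was raised to 16, and -0.87 with the offset.

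BLOC1S2, a subunit of a complex for lysosome-related organelles, had the smallest p of the apoptosis group. Probe set 7935746 gave 5.47, 5.39 and 6.59 in RB-proficient cells and 3.19, 5.41 and 3.79 in the RB-deficient-labelled arrays. Array 2 of the latter lay between RB-proficient arrays 1 and 2, so the groups overlapped by a narrow margin. The difference of -1.69 (SE 0.67, 3.23-fold) had an adjusted p of 0.315 and was -1.06 with the offset of 16.

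Single arrays set the differences of 2 further apoptosis genes. ZMAT3, an RNA-binding zinc-finger protein, was at 4.98, 4.15 and 5.61 in RB-proficient cells and 0, 5.18 and 5.31 in the RB-deficient-labelled arrays, with 1 value at the floor. Its difference of -1.41 (SE 1.25) was 0.33 without the array labelled RB-deficient 1. TP53INP1, a stress-induced nuclear protein, was at 7.13, 5.89 and 5.60 and then 2.13, 5.34 and 6.59, with array 1 again the lowest. The difference of -1.52 (SE 1.02) was -0.24 without that array and 0.38 without arrays 1 and 2.

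PHLDA3, a repressor of AKT, was tight in the RB-proficient arrays at 4.88, 4.76 and 4.87 and spread at 6.35, 5.32 and 4.74 in the RB-deficient-labelled arrays, with 2 arrays above the former range and 1 below it. Its difference was 0.63 (SE 0.55; 0.19 without array 1). AEN, a nuclease of apoptotic cells and 1 of the 2 genes with a half-site, was at 3.82, 5.02 and 3.96 and then 5.98, 3.05 and 2.84, highest and lowest in the RB-deficient-labelled arrays. Its difference of -0.31 (SE 0.84) was -1.32 without array 1, 0.14 without array 2 and 0.25 without array 3. TRIAP1, an inhibitor of apoptosis (-0.51, SE 0.52), PIDD1, the death-domain protein that activates caspase-2 (-0.36, SE 0.48), and SPATA18, of mitochondrial quality control (-0.22, SE 0.54), had differences no larger than their SE.

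All 5 DNA repair genes had a difference below 0, as did 58.7% of all genes, and XPC was the one without overlap (15.3% of all genes lay lower without overlap). XPC, which recognises lesions in nucleotide excision repair, read 6.57, 5.81 and 6.89 in the RB-proficient arrays (probe set 8085486) and 4.58, 4.88 and 5.21 in the RB-deficient-labelled arrays. Its RB-deficient values lay closer together than its RB-proficient ones, with SDs of 0.32 and 0.55, unlike 23 of the 29 genes. The difference was -1.54 (SE 0.51, 95% interval -2.68 to -0.39, 2.9-fold) with an adjusted p of 0.267. XPC stayed between -1.84 and -1.16 over the alternative settings, and its adjusted p between 0.104 and 0.727.

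POLH, the translesion polymerase eta, was at 3.80, 4.62 and 5.86 and then 2.68, 2.75 and 4.35, with array 3 inside the RB-proficient range and arrays 1 and 2 below it. Its difference of -1.50 (SE 0.69, adjusted p 0.375) was -0.95 without RB-proficient array 3 and -0.76 with the offset of 16. DDB2, which detects UV lesions, differed by -0.17 (SE 0.50), and was 0.048 without RB-proficient array 2 and 0.039 without the array labelled RB-deficient 3. RRM2B, the p53-induced subunit of ribonucleotide reductase, differed by -0.42 (SE 0.62; 0.089 without array 3). ASCC3, a helicase used in repair of alkylated DNA, was at 8.25, 8.06 and 8.61 and then 7.13, 7.42 and 8.69. Like MDM2 and MDM4, it lay below the RB-proficient range in arrays 1 and 2 and above it in array 3 (difference -0.56, SE 0.56; -0.25 without array 1, -1.03 without array 3).

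The polo-like kinases PLK2 and PLK3, which respond to stress, had differences of opposite sign. PLK3 was the one gene of the 29 whose RB-deficient values were all higher, at 3.85, 3.11 and 3.25 and then 5.12, 3.91 and 3.88 (probe set 7901054). The margin was narrow, 3.85 against 3.88, and the difference of 0.90 (SE 0.54, 95% interval -0.32 to 2.12) had an adjusted p of 0.487. Without the array labelled RB-deficient 1 it was 0.49, and with a floor of 16 it was 0.37. PLK2, the other gene with a half-site, was at 8.35, 8.23 and 6.46 and then 6.10, 7.42 and 8.73. Its difference of -0.26 (SE 0.78, adjusted p 0.895) was 0.40 without the array labelled RB-deficient 1, 0.073 without RB-proficient array 1 and 0.012 without RB-proficient array 2. The log2 ratio of PLK2 to PLK3 differed between the groups by -1.16 (two-sided exact permutation p 0.6, adjusted p 0.6).

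Each of the RB-deficient-labelled arrays had its own pattern over these genes. Array 1 lay below all RB-proficient values for 17 of 29 genes and above all for 5, array 2 for 15 and 5, and array 3 for 13 and 6. Of all genes tested, 42.1%, 48.0% and 37.6% lay below in arrays 1, 2 and 3, against 58.6%, 51.7% and 44.8% of the p53 genes. Above lay 35.1%, 30.4% and 25.5% of all genes, against 17.2%, 17.2% and 20.7% of the p53 genes. The median of the p53 genes against the RB-proficient mean was -0.88, -0.74 and -0.40 in these arrays. For some genes at least 1 of the RB-deficient-labelled arrays lay above the RB-proficient range and at least 1 below it. Among them MDM2, MDM4, PPM1D, ASCC3 and PLK2 were highest in array 3. The others were highest in array 1 (SESN2, PIDD1, AEN and PHLDA3) or in array 2 (SPATA18 and RRM2B). How common this mix was over all genes was not computed. SDs were larger in the RB-deficient-labelled arrays for 23 of 29 genes (79.3%), against 81.0% of all genes, and the median SD was 0.88 against 0.66 in the RB-proficient arrays. Over all genes these medians were 0.84 and 0.40.

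**Figure D4:**
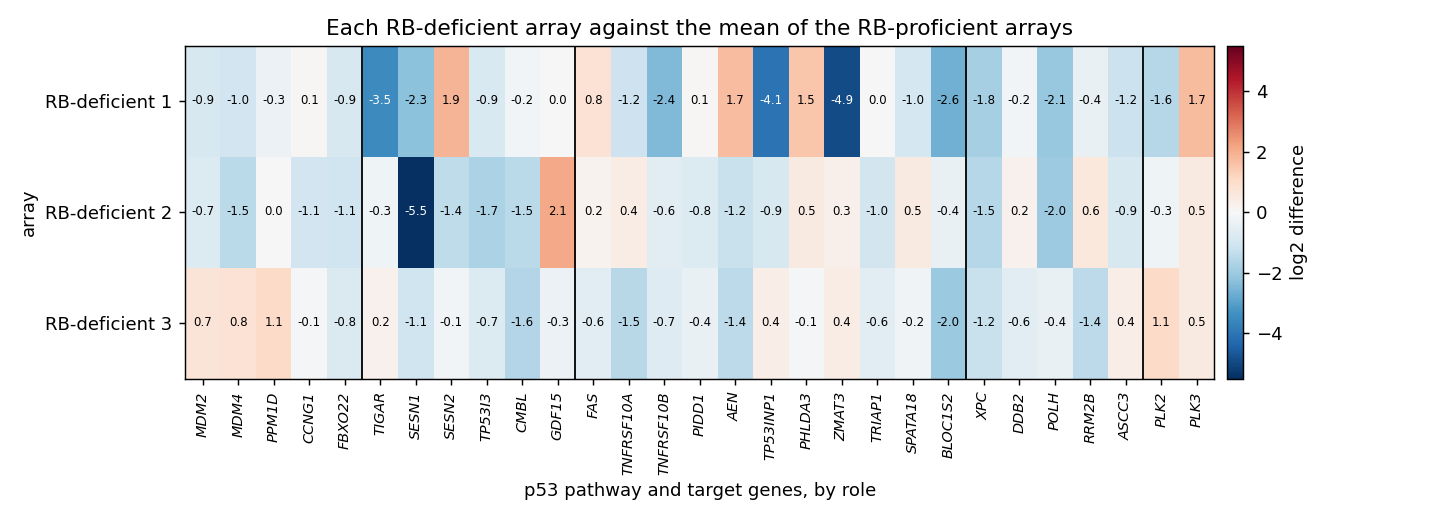
Log2 difference of each array labelled RB-deficient (rows) from the mean of the 3 RB-proficient arrays, for each p53 gene (columns, grouped by role), blue for lower and red for higher. SESN1 in array 2 (-5.5), ZMAT3 (-4.9) and TP53INP1 (-4.1) in array 1 are the darkest blue cells, and MDM2, MDM4 and PLK2 are red only in array 3.

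Other genes of the pathway were read from 2 lists, of p53 relatives, kinases and cofactors and of further targets. The lists were chosen by function, with earlier results of these data known. Of 48 such genes 44 were measured, and 0 passed by limma's test. At an unadjusted p under 0.05 there were 10 lower (22.7%, against 10.8% of all genes) and 0 higher (against 2.85%). The groups did not overlap for 15 lower (34.1%, against 15.3%) and 0 higher (against 7.12%). Below 0 were 34 of 44 differences (77.3%, against 58.7% of all genes), with a median of -0.79. The gap to the median of all genes was -0.58. It was -0.33 without the dimmest 50% of genes, a filter that left 30 of the 44. Without the RB-deficient-labelled arrays 1 and 2 the median of these genes was -0.30, against -0.14 for all genes, a gap of -0.16. The one call under an alternative setting was SFN with the offset of 16.

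Among p53 relatives, kinases and cofactors, 13 of 16 measured genes had a difference below 0 (81.25%, against 58.7% of all genes). CHEK2, a checkpoint kinase that phosphorylates p53, was at 4.52, 5.25 and 4.99 in RB-proficient cells and 0, 1.13 and 3.84 in the RB-deficient-labelled arrays (difference -3.26, SE 0.88, adjusted p 0.214). Its size depends on the floor and was -0.92 with a floor of 16. STK11, the kinase LKB1, differed by -2.17 (SE 0.67), KAT5, an acetyltransferase, by -2.31 (SE 0.89) and TP53BP2, which steers p53 towards apoptotic targets, by -1.53 (SE 0.58). KAT5 was -1.15 without the array labelled RB-deficient 1 and -1.41 with the floor of 16, which gave -1.38 for STK11. Without the RB-deficient-labelled arrays 1 and 2 TP53BP2 was -0.81. None of these 4 had overlapping groups, but they were named for their small p-values. In the whole list 6 of 16 lay lower without overlap (37.5%, against 15.3% of all genes).

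Of the further targets, 21 of 28 had a difference below 0 (75%, against 58.7% of all genes). Without overlap 9 lay lower (32.1%, against 15.3% of all genes). SFN, the 14-3-3 sigma protein that holds cells in G2, was at 8.61, 8.59 and 9.21 and then 7.35, 6.62 and 7.03, a difference of -1.80 (SE 0.49, 3.49-fold, adjusted p 0.215), and it passed with the offset of 16 (adjusted p 0.0418). PRKAB1, a subunit of the energy sensor AMPK, differed by -3.09 (SE 0.78), and SUSD6 by -2.44 (SE 0.73), both without overlap. With a floor of 16 these were -1.48 and -0.77, and SUSD6 was -1.58 without the array labelled RB-deficient 2. CDKN1A, the kinase inhibitor p21 and a classical target of p53, was at 6.25, 5.35 and 5.21 and then 1.21, 4.11 and 5.0. The groups did not overlap for CDKN1A, by a margin of 5.21 to 5.0, and the difference of -2.16 (SE 0.90, adjusted p 0.333) was -1.05 without the array labelled RB-deficient 1 and -0.60 without arrays 1 and 2, and -1.23 with the floor of 16.

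Direction was kept under all 17 alternative settings by 13 of the 29 genes. These were FBXO22, CCNG1, SESN1, TP53I3, CMBL, TNFRSF10A, TNFRSF10B, PIDD1, TRIAP1, BLOC1S2, XPC and POLH, all below 0, and PLK3, above 0. The direction of CCNG1 was kept in name only, since its difference reached -0.0019 without the array labelled RB-deficient 2. For dim genes 16 settings applied, because the filter on dim genes removed them. This filter, probe set means, the replicate block and eBayes with trend and robust cannot change a fitted difference of these genes. Those settings therefore did not test direction. The smallest adjusted p of any of the 29 genes under any setting was 0.0635, for SESN1.

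**Figure D5:**
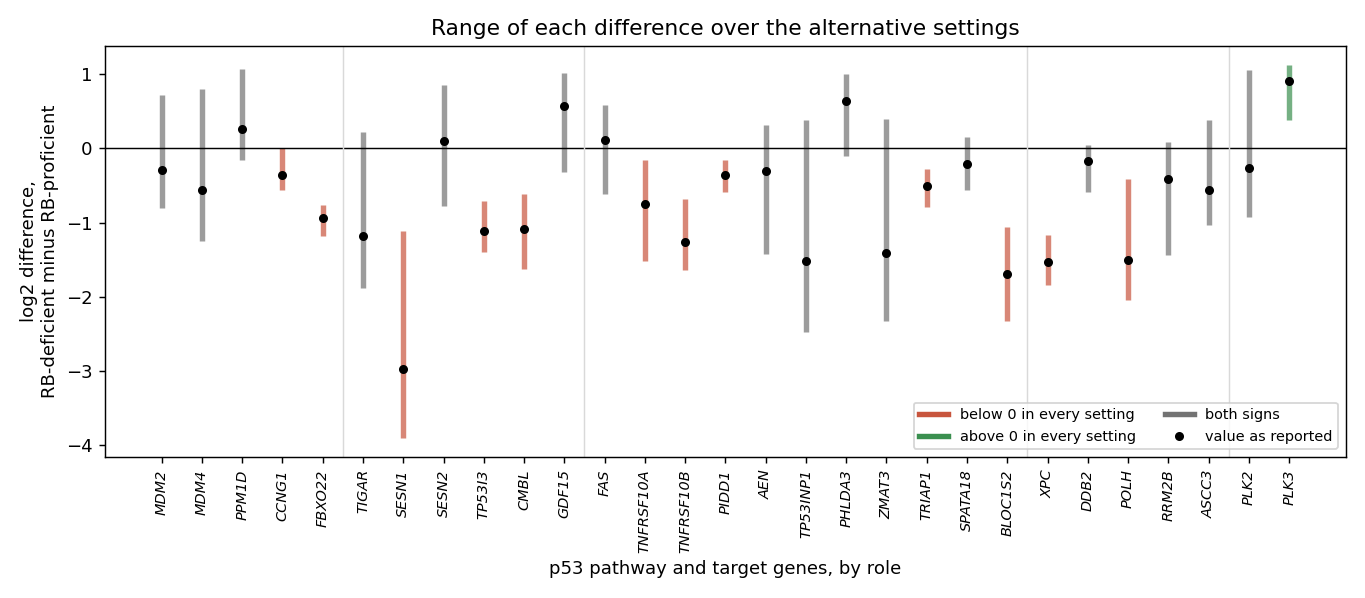
Range of each gene's fitted log2 difference (y axis) over the alternative settings, single arrays left out included, with the reported value as a black point. Red ranges stay below 0, the green range of PLK3 stays above 0, and grey ranges hold both signs.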

How the data were processed

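Per the labels' protocols, total RNA from 3-D cultures, lysed together with the matrix, was amplified (WT-Ovation Pico) and labelled with biotin. The authors ran Affymetrix Expression Console 1.1, per the submitters' processing notes. How they summarised and normalized the arrays is not given in the sources used here. Their deposited intensities were linear, with 1 value per probe set and array, from 3.53e-05 to 7075. Arrays were multiplied to reach 1 common median, a floor of 1 was set, and values were log2-transformed. Names came from the supplied platform annotation: of 33297 probe sets 19460 had 1 symbol, 1754 several and 12083 were not listed. Where a gene had several probe sets, the brightest over all 6 arrays was used, and all 29 measured genes matched RefSeq by gene number with the same symbol.

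The groups were compared over all 18417 genes with limma 3.58.1 in R 4.3.3 (lmFit, eBayes, two-sided, Benjamini-Hochberg adjustment, threshold 0.05), after the same code was tested on simulated data. The genes and lists were chosen with earlier results of these data known. Values on every array are given for genes whose groups did not overlap and for the 2 smallest p-values of each role group, and the 4 smallest p-values of each other list were named. MDM2, PPM1D, ASCC3, TIGAR, SESN2, ZMAT3, TP53INP1, PHLDA3 and AEN are shown by array as well and were chosen after their values were seen. No batch is given in the labels. Depth does not apply to arrays, and their number limits the precision. The alternatives were other scalings, a floor or an offset of 16, a filter on the dimmest 50% of genes, probe set means, other variance models, array weights, a replicate block and omitted arrays. The 6 arrays held different values.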

Additional observations from a re-analysis of the deposited data

How the results depend on the processing

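No p53 gene passed the threshold under any of the 17 alternative settings run, by limma in each. All genes past it numbered 1 as reported, 58 with a floor of 16, 194 with an offset of 16, 61 with eBayes with trend and robust, 4 without the dimmest 50% of genes, and 0 with quantile normalization. Among the other pathway genes 1 passed with the offset of 16. Their median was -0.30 without the arrays labelled RB-deficient 1 and 2, against -0.14 for all genes. With single arrays left out, the median of the p53 genes ran from -0.81 to -0.40 and the number below 0 from 20 to 25. Differences that changed sign with single arrays left out ran AEN from -1.32 to 0.25, DDB2 from -0.37 to 0.048, FAS from -0.22 to 0.58, GDF15 from -0.18 to 1.01, PLK2 from -0.92 to 0.40, PPM1D from -0.15 to 0.54, RRM2B from -0.91 to 0.089, SESN2 from -0.78 to 0.86, SPATA18 from -0.56 to 0.15 and ZMAT3 from -2.32 to 0.33. Without the arrays labelled RB-deficient 1 and 2, where the lone remaining array was taken to vary like the other group, the sign changed for MDM2 (0.72), MDM4 (0.80), TIGAR (0.22), SESN2 (-0.14), GDF15 (-0.31), FAS (-0.62), TP53INP1 (0.38), PHLDA3 (-0.10), ZMAT3 (0.40), ASCC3 (0.38), PLK2 (1.05). With array weights it changed for MDM2 (0.035), SESN2 (-0.18) and FAS (-0.033), and with the floor of 16 for AEN (0.32) and SPATA18 (0.013). Most of these differences were small against their SE, and the cause of the changes was not tested.

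The arrays of both groups carry numbers 1 to 3 in their titles. Deviations of same-numbered arrays from their group means correlated at -0.12, 0.07 and -0.11 across genes, so no pairing was used. With the number as a replicate block 0 p53 genes passed, and 1 of all genes passed. In this balanced design a block cannot change a fitted difference, so directions and medians stayed as reported.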
